A study of Mus musculus with 6 samples.

Results

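The genes described here make cholesterol and fatty acids or control how much of both a cell makes. They were chosen by name, 35 in all, and 34 had a row in the deposited expression table of 13743 entries. Mvd, the mevalonate diphosphate decarboxylase, is not analysed here. By role the 34 genes are 5 regulators of the sterol response (Srebf1, Srebf2, Scap, Insig1 and Insig2), 6 enzymes of the mevalonate steps (Acat2, Hmgcs1, Mvk, Pmvk, Idi1 and Fdps), 11 enzymes of the squalene and sterol steps (Fdft1, Sqle, Lss, Cyp51, Tm7sf2, Msmo1, Nsdhl, Hsd17b7, Ebp, Sc5d and Dhcr7) and 12 enzymes of the fatty acid branch (Acly, Acaca, Fasn, Scd1, Scd2, Elovl1, Elovl5, Elovl6, Fads1, Fads2, Acsl3 and Acsl4). The mevalonate, squalene and sterol enzymes together form the sterol branch, with 17 genes measured. All 34 averaged at least 1 RPKM over the libraries and so entered the test.

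RNA was sequenced from mouse embryonic stem cells of C57/129 strain and Dgcr8-/- genotype, in 3 groups of 2 libraries named CTR, miR-294 and siMbd2, each taken 48 h after transfection. Dgcr8 is needed for the nuclear cut that starts microRNA maturation, so all 3 groups, controls included, cannot make canonical microRNAs of their own. The miR-294 group received a mimic of a microRNA that normal embryonic stem cells make in large amounts, and the siMbd2 group a small interfering RNA against Mbd2, which encodes a reader of methylated DNA. Mimic and siRNA were used at 50 nM with the lipid reagent DharmaFECT1, and for the CTR wells the labels give no agent, while the word mock stands for them in the deposited table. How many clones the genotype stands for is not stated, and the labels do not say whether replicates were separate cultures, so p-values measure only the spread between these libraries.

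Cholesterol and fatty acids are both built from acetyl-CoA in the cytosol. The transcription factors encoded by Srebf1 and Srebf2 sit in the membrane of the endoplasmic reticulum bound to Scap, which carries them to the Golgi for cleavage when sterols are low, while the Insig proteins hold Scap back when sterols are plentiful. The Srebf2 product acts mainly on cholesterol genes and that of Srebf1 mainly on fatty acid genes, so both branches are often seen to move with the same sensor.

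Values are RPKM as the authors deposited them, reads divided by transcript length and by library size. Levels can be compared roughly between genes, while comparisons between libraries depend on the scaling, and results under other scalings are given below. Differences are given as log2 differences of RPKM + 1 with their standard error after the ± sign, a scale that understates changes of low genes. A gene is called higher or lower, and is said to have risen or fallen, where the adjusted p of limma (Benjamini-Hochberg over the 11428 genes tested) was under 0.05. Read depth is unknown. The summed RPKM of the libraries ran from 429460 to 493079, and replicates differed by a median of 0.14 (log2) in CTR against 0.06 in each treated group, so the CTR pair was the least alike. All 9 embryonic stem cell markers were in the table and together reached 5733 to 7259 RPKM in the 6 libraries, with Dppa5a the largest part (2958 to 4715 RPKM). Single markers went in different directions. With miR-294 Pou5f1, Zfp42, Tdgf1 and Utf1 were called higher, Nanog, Sox2 and Dppa5a lower, and Esrrb and Klf4 were not called. With siMbd2 Pou5f1, Esrrb, Dppa5a and Utf1 were called higher and Sox2 and Nanog lower. The summed markers of feeder fibroblasts (3 of 8 in the table) ran from 1.27 to 4.15 RPKM and those of primitive endoderm (7 of 8) from 2.89 to 4.20, with Foxa2 at 0 in 1 CTR library and Sox17 at 0 in 1 siMbd2 library. In the endoderm list Gata4 was called lower in both treated groups (0.96 and 0.92 RPKM with miR-294, 3.05 and 2.48 in CTR). The others, too low to be tested, read above CTR with miR-294, such as Sox7 at 1.28 and 1.15 beside 0.10 and 0.20. Trophoblast markers (5 of 6) summed to 56.2 to 64.1 RPKM in CTR, 40.7 to 43.5 with miR-294 and 64.0 to 65.5 after siMbd2, and mesoderm and ectoderm markers (5 of 6) to 39.8 to 40.4, 17.6 to 18.4 and 37.3 to 38.8. The fibroblast sums were highest in miR-294, mostly through Thy1 (3.60 and 3.37 RPKM there). The trophoblast, mesoderm and ectoderm sums were lowest in miR-294, but single trophoblast markers went in different directions. Tfap2c was called lower (9.08 and 8.60 RPKM, 28.4 and 26.2 in CTR) and Eomes higher (3.86 and 3.27, 1.63 and 1.47 in CTR). Krt7 and Krt8 were not called, and Cdx2, too low to be tested, read 0.79 and 0.77 against 0.20 and 0.20. The part of these markers in the results below was not tested. Mbd2, the gene the siRNA targets, read 26.8 and 27.9 RPKM in CTR, 11.3 and 12.3 with miR-294 and 7.33 and 6.34 after siMbd2. It was called lower in both treated groups (-1.15 and -1.86 log2). These are bulk libraries, in which fewer cells of a type and less RNA per cell cannot be told apart. With 2 libraries against 2 no exact permutation p can go below 0.333, so each call below rests on the spread that limma shares across genes.

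In the control group these genes were well expressed. The median member had 16.3 RPKM, against 11.98 over all genes tested, and 23 of the 34 lay above that value. Acly, which splits citrate into cytosolic acetyl-CoA and so feeds both branches, was the highest at 124 and 111 RPKM in the CTR libraries, followed at a distance by Fasn, the fatty acid synthase, at 51.6 and 42.1. Hsd17b7, a sterol 3-ketoreductase, was the lowest at 3.01 and 3.33, next to the desaturase gene Scd1 at 3.66 and 3.44. Among the sterol enzymes Ebp (48.3 and 37.1), Hmgcs1 (40.2 and 45.9) and Fdps (43.3 and 39.3) had CTR values that overlapped one another.

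**Figure D1:**
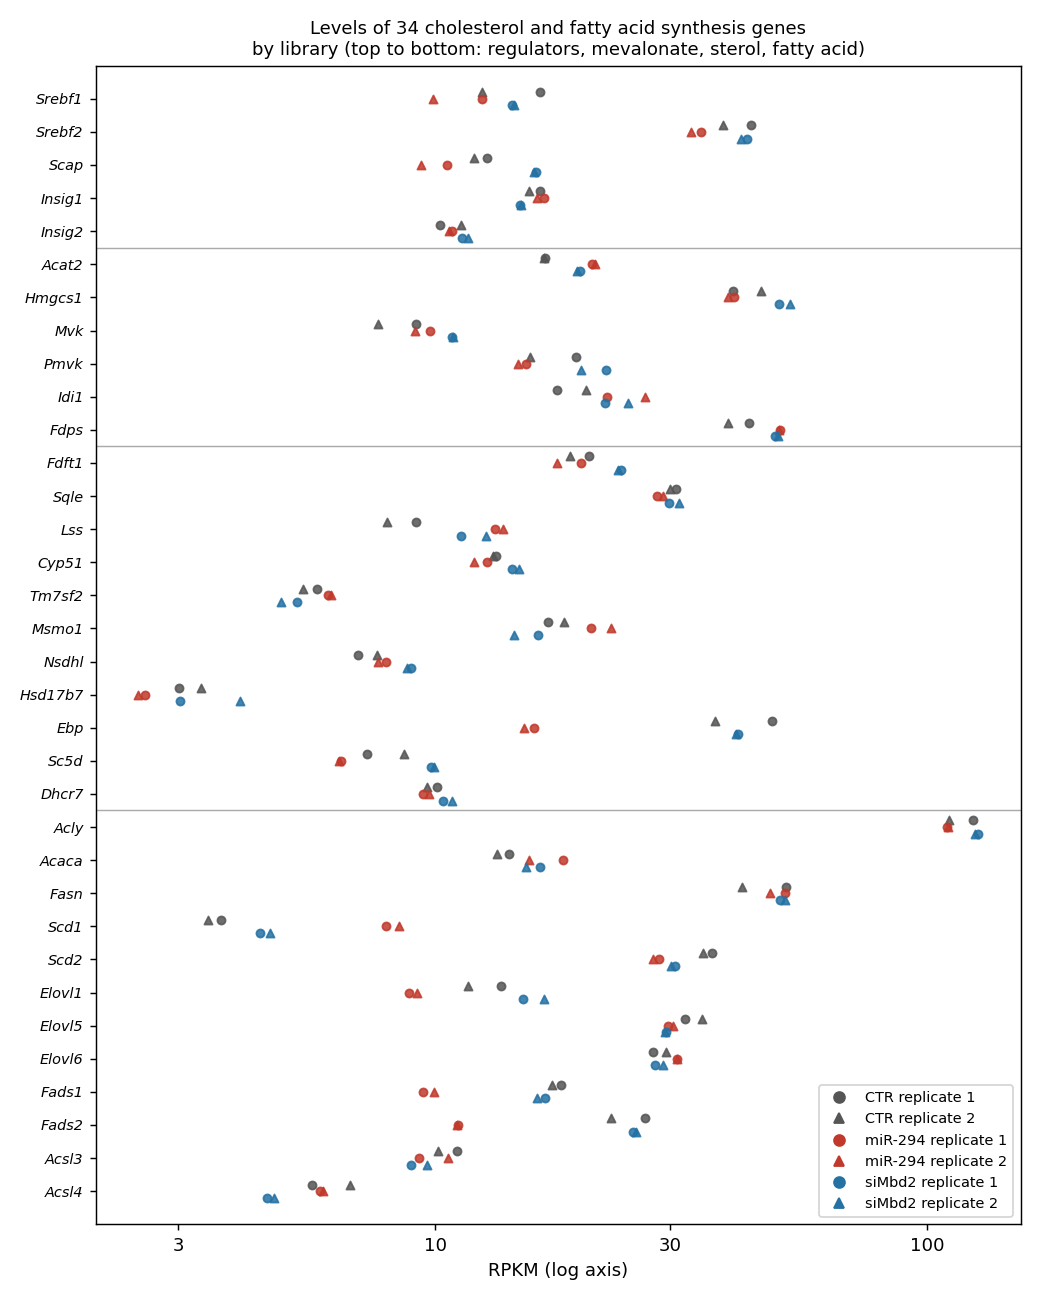
RPKM of each of the 34 genes (log axis) in the 6 libraries, grouped by role from top to bottom; circles are replicate 1 and triangles replicate 2. Most genes keep their level within a narrow band, while Ebp, Fads1 and Fads2 sit clearly lower and Scd1 clearly higher in both miR-294 libraries.

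With miR-294, 7 of the 34 genes rose and 8 fell, while 27.7% of all genes tested were called higher and 36.8% lower. With quantile normalization 10 rose and 7 fell, while the upward share of the calls over all genes went from 42.9% to 51.3%. The median log2 difference of the set was -0.075, beside -0.078 for all genes. The largest differences lay in a few enzymes. Ebp, Fads2 and Fads1 fell by at least 1.5-fold on the log2(RPKM + 1) scale, and Scd1 and Lss rose by as much, where 16.7% of all genes fell and 9.54% rose that far. Under siMbd2 the changes were smaller and ran mostly upward. In that comparison 11 members rose and 2 fell, against 19.5% and 14.9% of all genes, and no member reached 1.5-fold. Both comparisons use the same CTR libraries, so their values are given side by side and are not independent.

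**Figure D2:**
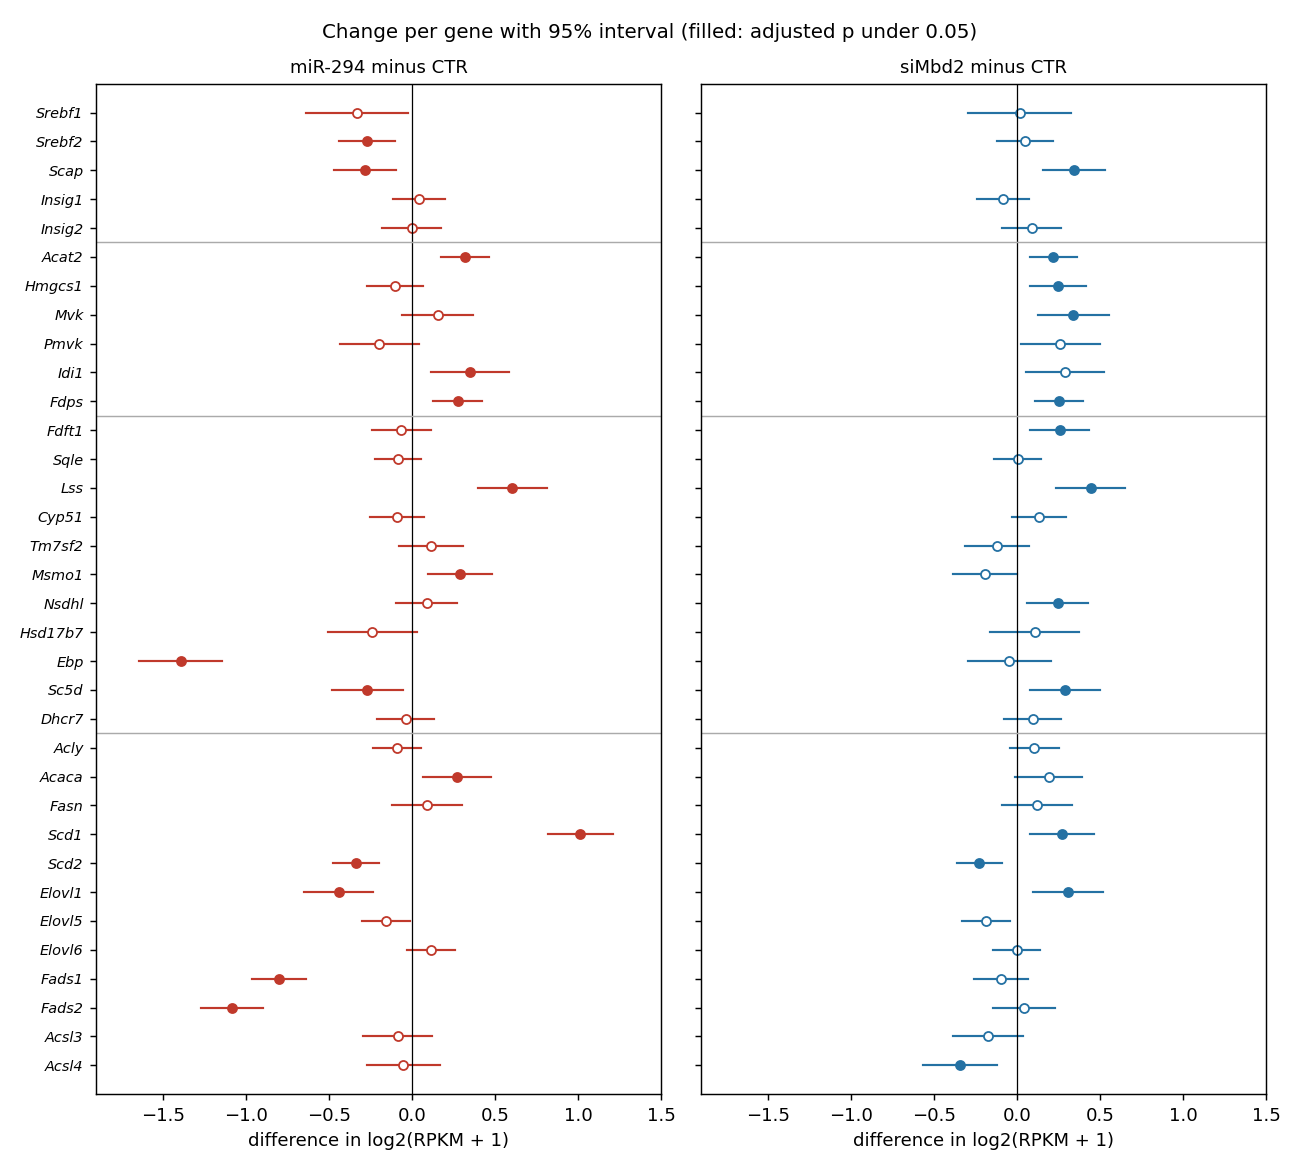
Difference in log2(RPKM + 1) from CTR for each gene, with the 95% interval of the limma fit, for miR-294 (left) and siMbd2 (right); filled points were called. Ebp, Fads1, Fads2 and Scd1 lie far from 0 on the left, and on the right the points from Acat2 to Fdft1 lie between 0.22 and 0.34.

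In the test of miR-294 against siMbd2, whose error also draws on the CTR libraries, 4 members were higher and 13 lower with miR-294, beside 21.9% and 35.5% of all genes. The split became 8 and 10 under median-of-ratios scaling and 9 and 11 under quantile normalization, and with the 2 treated groups alone in the fit it was 5 and 17. The members' median was -0.12, beside -0.081 for all genes. Both miR-294 libraries lay below both siMbd2 libraries for 20 of the 34 members, and 49.6% of all genes did the same, so the count for the set is not far from the background.

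The microRNA itself pairs with messages through its seed. Its mature 3p arm, from RefSeq (GRCm38.p6, chr7:3220691-3220712, plus strand), is shown with the seed, bases 2 to 8, in capitals. The labels do not say which arm or sequence the mimic carried.
miR-294-3p: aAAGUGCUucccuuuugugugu

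Matches to this seed were sought in GENCODE vM21 (GRCm38), taking the longest 3′ UTR per gene, as the 8-base match AGCACTTA or the 7-base matches AGCACTT and GCACTTA. Of the 34 members 4 had at least 1 match (11.8%), beside 20.9% of the 10802 tested genes with an annotated 3′ UTR. The 4 sites are shown on the gene strand with the match in capitals, because they are the only ones found in the set and just 1 of the 4 genes, Fads2, fell with miR-294. They lie at chr19:10063382-10063388 (Fads2, minus strand), chr1:169949994-169950001 (Hsd17b7, minus), chr3:89468859-89468865 (Pmvk, plus) and chr3:129636000-129636006 (Elovl6, plus). The Fads2 match starts at base 875 of a 3′ UTR of 1498 bases and that of Pmvk at base 209 of 363.
Fads2: ccaatctagccAGCACTTggcttcttttt
Hsd17b7: agagatggctcAGCACTTAagagccccgag
Pmvk: gcctctttaggGCACTTAtagggcaaagg
Elovl6: tatgcttccaaAGCACTTtagtctcagtg

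Of the 8 members that fell with miR-294, 1 held a match (12.5%), where 28.9% of all tested genes called lower did. The annotated 3′ UTR of Ebp, 281 bases long, held no match, nor did the 1955 bases of Fads1. The 4 members with a match had a median log2 difference of -0.22 between miR-294 and CTR (range -1.08 to 0.12), and the 2259 tested genes with a match -0.25. Members without a match had a median of -0.059 and all genes without one -0.033. A match is a run of letters, and binding was not measured.

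The regulators come first. Scap, the sterol sensor that escorts both transcription factors, read 12.7 and 11.96 RPKM in CTR, 10.6 and 9.35 with miR-294 and 16.0 and 15.9 after siMbd2. The 3 groups did not overlap: it fell with miR-294 (-0.28 ± 0.081, adjusted p = 0.0138) and rose with siMbd2 (0.34 ± 0.081, adjusted p = 0.013), and the direct test between the treatments gave -0.63 ± 0.081, adjusted p = 2.90e-04. Srebf2, the cholesterol-directed factor, read 43.8 and 38.5 RPKM in CTR, 34.7 and 33.0 with miR-294 and 43.0 and 41.9 after siMbd2. Both miR-294 libraries lay below all the others, and the gene fell by 0.27 (SE 0.074, adjusted p = 0.0112), while the siMbd2 values lay inside the CTR range. Srebf1, the fatty acid-directed factor, had a log2 difference of -0.33 with miR-294 but was not called (adjusted p = 0.0583). It read 16.3 and 12.4 RPKM in CTR, 12.5 and 9.90 with miR-294 and 14.3 and 14.4 after siMbd2, with a CTR pair that spread widely. Insig1 and Insig2, which retain Scap in the endoplasmic reticulum, gave no call in any comparison on the deposited scale, with 95% intervals of -0.11 to 0.20 and -0.18 to 0.18 for miR-294 and of -0.24 to 0.071 and -0.088 to 0.27 for siMbd2. Between the treatments Insig1 was called higher with miR-294 under median-of-ratios scaling (0.20, adjusted p = 0.0241) and quantile normalization (0.28, adjusted p = 0.00627), where the deposited scale gave 0.13. Srebf1 was called lower with miR-294 without CTR replicate 2 (-0.51, adjusted p = 0.00658) or miR-294 replicate 1 (-0.48, adjusted p = 0.0282). In all, 2 of the 5 regulators fell with miR-294 and 1, Scap, rose with siMbd2. Over all genes 36.8% were called lower with miR-294 and 19.5% higher with siMbd2, so these counts are near the background. Without miR-294 replicate 2 the miR-294 calls of Scap (-0.20, adjusted p = 0.133) and Srebf2 (-0.24, adjusted p = 0.0867) were lost, and quantile normalization ended that of Scap (-0.12, adjusted p = 0.199). An antisense gene covers 13.2% of the exon bases of Scap, and whether reads were counted by strand was not given in the sources used here.

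Mevalonate enzymes turn acetyl-CoA into the isoprenoid units from which sterols, dolichol and protein prenyl groups are made. With siMbd2 all 6 measured enzymes were above both CTR libraries in both siMbd2 libraries, and 4 of them, Acat2, Hmgcs1, Mvk and Fdps, rose, with a median over the 6 of 0.26. In the whole set 18 of 34 genes had this non-overlap, as did 37.0% of all genes. With miR-294 3 of the 6, Acat2, Idi1 and Fdps, rose, and the median was 0.21. Over all genes 27.7% were called higher with miR-294 and 19.5% with siMbd2, with medians of -0.078 and 0.023. Acat2, the cytosolic acetoacetyl-CoA thiolase that opens the pathway, read 16.7 and 16.6 RPKM in CTR, 20.8 and 21.1 with miR-294 and 19.6 and 19.4 after siMbd2. It rose in both treatments, by 0.32 with miR-294 (SE 0.063, adjusted p = 0.00213) and by 0.22 with siMbd2 (SE 0.063, adjusted p = 0.0273). The siMbd2 call of Acat2 was lost under quantile normalization (0.17, adjusted p = 0.0622) and in the fit of CTR and siMbd2 alone (adjusted p = 0.0704). Fdps, the farnesyl diphosphate synthase at the fork to sterols and prenyl groups, read 43.3 and 39.3 RPKM in CTR, 50.2 and 50.0 with miR-294 and 48.9 and 49.7 after siMbd2. All 4 treated libraries lay within 48.9 to 50.2, above both CTR libraries, with differences of 0.27 (adjusted p = 0.00518) and 0.25 (adjusted p = 0.0174). Idi1, the isopentenyl diphosphate isomerase, also had both treated groups above CTR, at 17.7 and 20.3 RPKM in CTR, 22.4 and 26.6 with miR-294 and 22.1 and 24.6 after siMbd2. It was called with miR-294 (0.35 ± 0.10, adjusted p = 0.0159) and not with siMbd2 (0.29 ± 0.10, adjusted p = 0.0595), where it was called without CTR replicate 2 (0.38, adjusted p = 0.029). The miR-294 call of Idi1 was lost without CTR replicate 1 (0.26, adjusted p = 0.0673), as it was when miR-294 replicate 2 was left out (0.23, adjusted p = 0.138).

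The other 3 mevalonate enzymes had their highest values in siMbd2. Hmgcs1, the HMG-CoA synthase and a classical SREBP target, read 40.2 and 45.9 RPKM in CTR, 40.5 and 39.3 with miR-294 and 49.9 and 52.5 after siMbd2. The miR-294 libraries lay close to the lower CTR library while both siMbd2 libraries lay above the higher, and the gene was called with siMbd2 (0.25 ± 0.073, adjusted p = 0.0312) and between the treatments (-0.35 ± 0.073, adjusted p = 0.00355). The siMbd2 call of Hmgcs1 was lost under median-of-ratios scaling (0.24, adjusted p = 0.0514) and quantile normalization (0.17, adjusted p = 0.141). It was also lost without the intensity trend (adjusted p = 0.0544) and with CTR and siMbd2 alone in the fit (adjusted p = 0.0624). Mvk, the mevalonate kinase, read 9.12 and 7.65 RPKM in CTR, 9.75 and 9.10 with miR-294 and 10.8 and 10.9 after siMbd2, and rose with siMbd2 (0.34 ± 0.093, adjusted p = 0.0242). With miR-294 Mvk was not called on the deposited scale (0.16, adjusted p = 0.175). It was called higher there under median-of-ratios scaling (0.22, adjusted p = 0.0456) and quantile normalization (0.35, adjusted p = 0.0062). Pmvk, the kinase after it, read 19.3 and 15.6 RPKM in CTR, 15.3 and 14.7 with miR-294 and 22.2 and 19.7 after siMbd2. Its siMbd2 values passed both CTR values by little and it was not called there (0.26 ± 0.10, adjusted p = 0.0843), though it was without CTR replicate 1 (0.41, adjusted p = 0.00628), and the direct test put it lower with miR-294 (-0.46 ± 0.10, adjusted p = 0.00555). For several of these genes the counting itself is uncertain. Of the 50-base windows of the longest transcript, 86.4% in Fdps, 45.9% in Acat2 and 30.5% in Idi1 also occur in another annotated gene (chiefly Gm43738, Acat3 and Gm13502), with the authors' handling of such reads not given in the sources used here.

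Promoters were read from RefSeq (GRCm38.p6, 250 bases before to 50 after the annotated start), which held 28 of the 34 members. The letters of the NF-Y box, CCAAT on either strand, were found in 22 of the 28 genes (78.6%), beside 43.6% of 8657 tested genes with a promoter in the table. NF-Y is known as a partner of the SREBP factors at sterol promoters. By role the box was in 13 of 14 sterol branch genes, among them 9 of 9 of the squalene and sterol steps, and in 5 of 9 fatty acid genes. The sterol element TCACNCCAC was found on either strand in 1 member, Hmgcs1 (3.57%, beside 1.41% of tested genes), and the E-box CACGTG in 6 of 28 (21.4%, beside 12.2%). None of these 3 motifs contains another, and a match is a description of this window only. The promoters of Hmgcs1 (chr13:119690101-119690400, plus strand) and Mvk (chr5:114444019-114444318, plus strand) are shown as 2 of the 4 mevalonate genes called higher with siMbd2 on the deposited scale. Of the others, Acat2 held none of the 3 motifs in this window, and Fdps was not among the 28 genes. Capitals mark the box, as CCAAT or its reverse complement ATTGG (4 in Hmgcs1 and 5 in Mvk), and in Hmgcs1 the sterol element, which starts 137 bases before the annotated start.
Hmgcs1: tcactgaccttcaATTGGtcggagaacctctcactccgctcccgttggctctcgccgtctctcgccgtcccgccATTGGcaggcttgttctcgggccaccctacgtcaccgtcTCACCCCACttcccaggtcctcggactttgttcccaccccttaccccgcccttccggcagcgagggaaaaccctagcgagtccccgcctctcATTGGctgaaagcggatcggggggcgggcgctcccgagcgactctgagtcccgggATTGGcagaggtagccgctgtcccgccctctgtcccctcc
Mvk: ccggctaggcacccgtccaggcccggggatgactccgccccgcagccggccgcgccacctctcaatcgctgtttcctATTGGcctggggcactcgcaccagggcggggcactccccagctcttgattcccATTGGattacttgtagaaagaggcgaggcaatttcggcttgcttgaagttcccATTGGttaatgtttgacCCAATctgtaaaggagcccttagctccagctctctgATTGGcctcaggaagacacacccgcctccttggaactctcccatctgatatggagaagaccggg

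The squalene and sterol steps close the ring and strip and shift its bonds until cholesterol remains. Of these 11 enzymes 2 rose, 2 fell and 7 were not called with miR-294, with a median of -0.065. Beside them 27.7% of all genes were called higher and 36.8% lower, with a median of -0.078. Ebp had the largest log2 difference of the 34 genes. It encodes the emopamil binding protein, the isomerase that shifts an unsaturated bond within the sterol ring, and lies on the X chromosome (chrX:8185329-8193512, minus strand, GRCm38). Its values were 48.3 and 37.1 RPKM in CTR, 15.9 and 15.1 with miR-294 and 41.2 and 40.8 after siMbd2. The miR-294 libraries held 0.36 of the CTR mean (15.5 ± 0.52 against 42.7 ± 7.97 RPKM, SD, n = 2) and lay far below every other library, whereas siMbd2 lay inside the CTR range. It fell by 1.39 on the log2 scale (SE 0.11, adjusted p = 1.53e-05), and its difference from siMbd2 was -1.35 (adjusted p = 2.96e-05). Sc5d, the desaturase that acts right after Ebp in the textbook order, went in opposite directions in the treatments at 7.26 and 8.63 RPKM in CTR, 6.44 and 6.37 with miR-294 and 9.81 and 9.95 after siMbd2. It was called lower with miR-294 (-0.27 ± 0.092, adjusted p = 0.0308), higher with siMbd2 (0.29 ± 0.092, adjusted p = 0.0422) and different between them (-0.56 ± 0.092, adjusted p = 0.0011). The miR-294 call of Sc5d was lost under quantile normalization (-0.066, adjusted p = 0.597), under median-of-ratios scaling (-0.21, adjusted p = 0.0965), in the fit of miR-294 and CTR alone (adjusted p = 0.0613) and on leaving out CTR replicate 2 or any 1 of the miR-294 and siMbd2 libraries (adjusted p up to 0.123). Both scalings also ended its siMbd2 call (adjusted p = 0.0591 with median-of-ratios and 0.0523 with quantile normalization).

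Lss, the lanosterol synthase that closes the sterol ring, rose in both treatments. It read 9.12 and 7.96 RPKM in CTR, 13.2 and 13.7 with miR-294 and 11.3 and 12.7 after siMbd2. No treated library overlapped CTR, the differences were 0.60 for miR-294 (SE 0.090, adjusted p = 4.78e-04) and 0.44 for siMbd2 (SE 0.090, adjusted p = 0.00719), and the difference between the treatments, 0.16 ± 0.090, adjusted p = 0.164, was not called (95% interval -0.048 to 0.37). It was called under median-of-ratios scaling (0.23, adjusted p = 0.0414) and quantile normalization (0.33, adjusted p = 0.0122). Msmo1, the methylsterol oxidase, read 16.9 and 18.3 RPKM in CTR, 20.7 and 22.7 with miR-294 and 16.2 and 14.4 after siMbd2. It rose with miR-294 (0.29 ± 0.084, adjusted p = 0.0156), while both siMbd2 libraries lay below CTR without a call (-0.19 ± 0.084, adjusted p = 0.11), and the treatments differed by 0.48 (adjusted p = 0.00148). Fdft1, the squalene synthase, at 20.5 and 18.8 RPKM in CTR, 19.8 and 17.7 with miR-294 and 23.8 and 23.5 after siMbd2, rose with siMbd2 (0.26 ± 0.078, adjusted p = 0.0345) and lay lower with miR-294 in the direct test (-0.32 ± 0.078, adjusted p = 0.00759). Nsdhl, a sterol dehydrogenase, had 6.97 and 7.60 RPKM in CTR, 7.95 and 7.65 with miR-294, without a call, and 8.90 and 8.74 in siMbd2, a rise of 0.25 (adjusted p = 0.0443). This siMbd2 call was lost in limma without the filter on low values (adjusted p = 0.0505) and under median-of-ratios scaling (adjusted p = 0.0565). The fit of CTR and siMbd2 alone also ended it (adjusted p = 0.0881). The Msmo1 call with miR-294 was lost without miR-294 replicate 2 (0.22, adjusted p = 0.131), and the exons of Fdft1 overlap those of Ctsb on the opposite strand for 18.3% of their bases.

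The remaining sterol enzymes gave no call against CTR in either treatment on the deposited scale, and with quantile normalization Tm7sf2 was called higher with miR-294 (0.34, adjusted p = 0.00565, where the deposited scale gave 0.11). Sqle, the squalene epoxidase and a known control point, stayed within 28.2 to 31.25 RPKM in the 6 libraries, with 95% intervals of -0.23 to 0.054 and -0.14 to 0.14. Dhcr7, a reductase of the final steps, stayed within 9.44 to 10.8, with intervals of -0.21 to 0.13 and -0.076 to 0.26. Cyp51, the lanosterol demethylase, and Hsd17b7 were lower with miR-294 in the direct test of the treatments (-0.22 ± 0.071, adjusted p = 0.0262 and -0.34 ± 0.12, adjusted p = 0.0326), and Tm7sf2, a sterol reductase, was higher (0.23 ± 0.084, adjusted p = 0.0417). Both other scalings ended the calls of Cyp51 and Hsd17b7 (adjusted p = 0.101 and 0.0673 with median-of-ratios, 0.557 and 0.246 with quantile normalization). In this direct test 2 of the 11 were higher and 5 lower with miR-294, beside 21.9% and 35.5% of all genes. Under siMbd2 against CTR 4 of the 11 rose, Fdft1, Lss, Nsdhl and Sc5d, with a median of 0.11. Beside them 19.5% of all genes were called higher, with a median of 0.023.

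In the fatty acid branch, as among all genes, calls with miR-294 went in both directions. Of the 12 genes 2 rose, Scd1 and Acaca, and 4 fell, Fads2, Fads1, Elovl1 and Scd2, beside 27.7% and 36.8% of all genes. Fads2 encodes the delta-6 desaturase that starts the making of long polyunsaturated fatty acids and Fads1 the delta-5 desaturase that follows. The genes lie 81.1 kb apart on chromosome 19, on opposite strands. Fads2 read 26.6 and 22.7 RPKM in CTR, 11.1 and 11.1 with miR-294 and 25.2 and 25.5 after siMbd2. The miR-294 libraries were nearly identical and held 0.45 of the CTR mean, and siMbd2 lay inside the CTR range. Fads1 read 18.0 and 17.3 RPKM in CTR, 9.45 and 9.93 with miR-294 and 16.7 and 16.1 after siMbd2 and held 0.55 of the CTR mean with miR-294. Both fell with miR-294 (Fads2 -1.08 ± 0.082, adjusted p = 1.35e-05, Fads1 -0.80 ± 0.071, adjusted p = 2.78e-05) and were also lower than with siMbd2 (-1.13 and -0.70), and neither was called with siMbd2 against CTR, although both siMbd2 libraries lay below CTR for Fads1 (0.043, adjusted p = 0.714, and -0.096, adjusted p = 0.324).

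Scd1 and Scd2 encode stearoyl-CoA desaturases, which make monounsaturated fatty acids, and they moved in opposite directions with miR-294. Scd1 read 3.66 and 3.44 RPKM in CTR, 7.94 and 8.44 with miR-294 and 4.39 and 4.60 after siMbd2. The 3 groups did not overlap, miR-294 stood 2.31-fold over CTR (8.19 ± 0.35 against 3.55 ± 0.16 RPKM, SD, n = 2), and the gene rose in both treatments (1.01 ± 0.085, adjusted p = 2.07e-05, and 0.27 ± 0.085, adjusted p = 0.0371). Scd2, the more abundant of the pair in every library, read 36.5 and 34.99 RPKM in CTR, 28.4 and 27.7 with miR-294 and 30.7 and 30.1 after siMbd2. It fell with miR-294 (-0.34 ± 0.060, adjusted p = 0.00121) and with siMbd2 (-0.23 ± 0.060, adjusted p = 0.0206), and the treatments differed by -0.11 (adjusted p = 0.142), which was not called. The genes share little sequence, 4.66% of the 50-base windows of Scd1 and 4.01% of those of Scd2 being found in another gene.

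**Figure D3:**
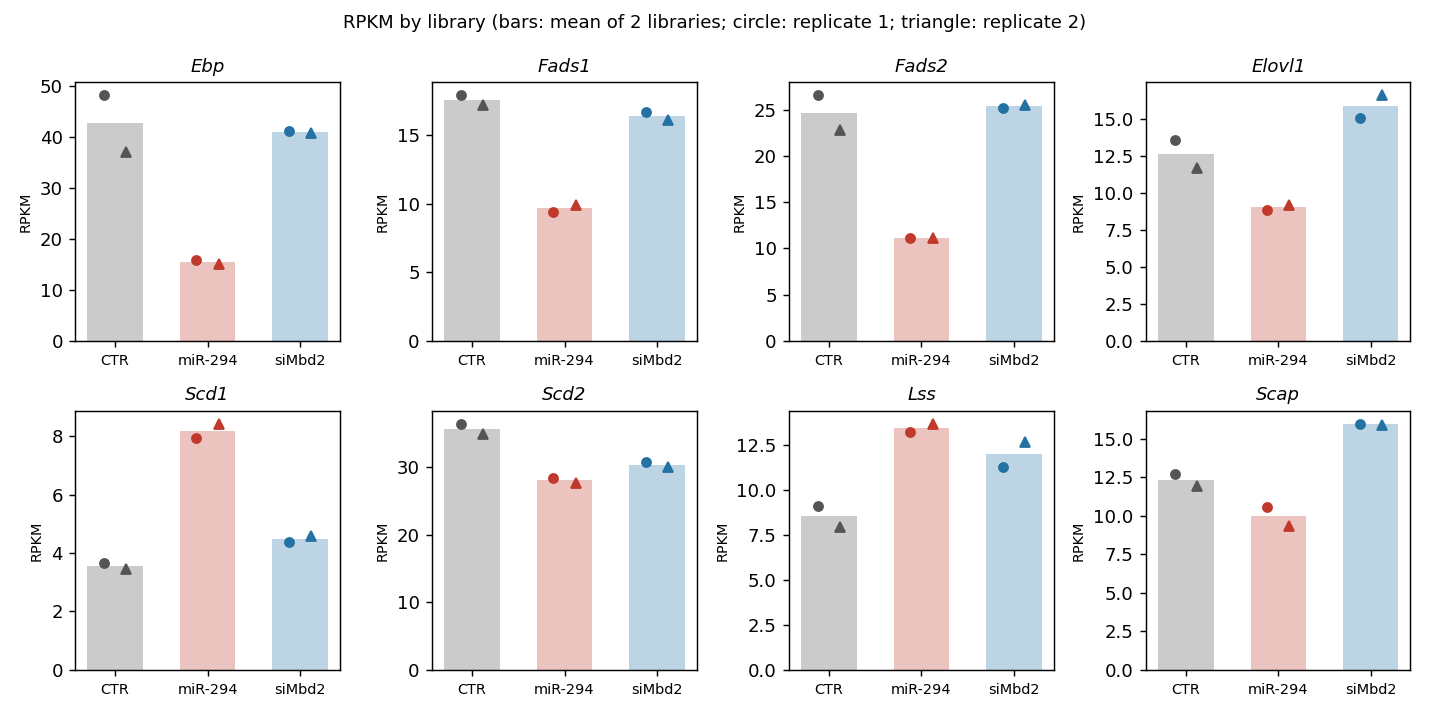
RPKM of 8 genes in each library, with bars for the mean of the 2 libraries of a group and points for the libraries. Ebp, Fads1 and Fads2 are lowest in miR-294, Elovl1 and Scap lie below CTR in miR-294 and above it in siMbd2, Scd1 and Lss lie above CTR in both, and Scd2 below CTR in both.

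Elovl1, which lengthens saturated very long chains, moved in opposite directions in the treatments, as Scap and Sc5d did. Its values were 13.6 and 11.7 RPKM in CTR, 8.84 and 9.17 with miR-294 and 15.04 and 16.6 after siMbd2, in 3 groups that did not overlap. It fell with miR-294 (-0.44 ± 0.091, adjusted p = 0.0028), rose with siMbd2 (0.31 ± 0.091, adjusted p = 0.0315) and differed between the treatments by -0.75 (adjusted p = 2.15e-04). Acaca, the acetyl-CoA carboxylase that commits carbon to fatty acids, read 14.1 and 13.4 RPKM in CTR, 18.2 and 15.5 with miR-294 and 16.3 and 15.3 after siMbd2 and rose with miR-294 (0.27 ± 0.089, adjusted p = 0.0251). That call was lost without miR-294 replicate 1 (0.16, adjusted p = 0.225), and when CTR replicate 2 was left out (0.24, adjusted p = 0.0644), and 52.6% of its 50-base windows also occur in Gm5182. Acsl4, an acyl-CoA synthetase for arachidonate, read 5.60 and 6.70 RPKM in CTR, 5.83 and 5.92 with miR-294 and 4.55 and 4.69 after siMbd2. Both siMbd2 libraries lay below all others, and the gene fell by 0.34 against CTR (SE 0.096, adjusted p = 0.0257).

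Acly and Fasn, the most abundant genes of the branch, gave no call against CTR with all libraries on the deposited scale. Fasn ran from 51.6 and 42.1 RPKM in CTR to 51.3 and 48.0 with miR-294 and 50.2 and 51.5 after siMbd2, with overlapping groups in every comparison and 95% intervals of -0.12 to 0.30 and -0.088 to 0.33. Acly read 124 and 111 RPKM in CTR, 110 and 110 with miR-294 and 127 and 125 after siMbd2, and came out lower with miR-294 when the treatments were compared (-0.20 ± 0.064, adjusted p = 0.0281). Without CTR replicate 1 Fasn was called higher in both treatments (0.23, adjusted p = 0.00703, and 0.27, adjusted p = 0.0071) and Acly higher with siMbd2 (0.19, adjusted p = 0.00734). Acly was called lower with miR-294 without CTR replicate 2 (-0.17, adjusted p = 0.00549) and under quantile normalization (-0.29, adjusted p = 0.0018). Elovl5 and Elovl6, elongases of polyunsaturated and of saturated chains, had differences of -0.16 and 0.12 with miR-294 and were not called with all libraries on the deposited scale, nor was Acsl3 (-0.087 with miR-294 and -0.18 with siMbd2). Elovl5 was called lower in both treatments without CTR replicate 1 (-0.21, adjusted p = 0.00695, and -0.24, adjusted p = 0.00718), and Elovl6 higher with miR-294 without CTR replicate 2 (0.16, adjusted p = 0.0303) and under median-of-ratios scaling (0.18, adjusted p = 0.0419).

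Sterol and fatty acid branches are compared here by their counts and medians. Under siMbd2 8 of 17 sterol genes rose and none was called lower in limma (10 and 0 at an unadjusted p under 0.05), with a median of 0.25, where in the fatty acid branch 2 rose and 2 fell, with a median of 0.021. Of all genes 19.5% were called higher and 14.9% lower, with a median of 0.023. With quantile normalization these medians were 0.17 and -0.049, and without CTR replicate 2 the fatty acid median was -0.044. By library the sterol median relative to the CTR mean was 0.21 and 0.23 in siMbd2, and 0.012 and -0.022 in miR-294. The fatty acid median was 0.0027 and 0.039 in siMbd2, and -0.13 and -0.066 in miR-294. With miR-294 the sterol branch had 5 genes higher and 2 lower at a median of -0.039, which became 0.025 under median-of-ratios scaling and 0.14 under quantile normalization, and the fatty acid branch 2 higher and 4 lower at a median of -0.090 (-0.023 and -0.085 under these scalings). Against siMbd2, miR-294 had 2 sterol genes higher and 7 lower (median -0.16, and 0.0003 under quantile normalization), and 2 fatty acid genes higher and 4 lower (median -0.0022, and 0.077 under median-of-ratios scaling). The shares over all genes were 27.7% higher and 36.8% lower with miR-294 against CTR, and 21.9% and 35.5% against siMbd2. Whether the branches differ was not tested, because the members were chosen with earlier results known. Both siMbd2 libraries lay above both CTR libraries for 12 of 17 sterol and 4 of 12 fatty acid genes, beside 37.0% of all genes.

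The siMbd2 calls rest on the spread shared by all 3 groups. With CTR and siMbd2 alone in the fit 4 members, Scap, Mvk, Fdps and Lss, were called higher and 0 lower (12 and 3 at an unadjusted p under 0.05), and without siMbd2 replicate 1 only Lss remained called (0.52, adjusted p = 0.026), while without siMbd2 replicate 2 no member was called (7 and 2 unadjusted). Of the 17 calls between the treatments, those of Scap, Hmgcs1, Msmo1, Ebp, Sc5d, Scd1, Elovl1, Fads1 and Fads2 held in every alternative run and the other 8 were lost in at least 1.

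The rest of the pathway was read from lists that hold none of the members. The counts below stand beside 27.7% of all genes called higher and 36.8% lower with miR-294 (median -0.078), and 19.5% and 14.9% with siMbd2 (median 0.023). Of 9 genes for SREBP processing and sterol sensing, 6 fell and 1 rose with miR-294 (median -0.25), and 2 rose, Nr1h2 among them, and 2 fell (Mbtps2 and Erlin1) with siMbd2 (median 0.058). Erlin1, part of a complex of the endoplasmic reticulum that restrains SREBP activation, read 32.6 and 31.9 RPKM in CTR, 11.9 and 11.5 with miR-294 and 27.2 and 26.9 after siMbd2. It fell with miR-294 (-1.38 ± 0.062, adjusted p = 1.97e-06), well below the range of the other groups, and to a lesser extent with siMbd2 (-0.24 ± 0.062, adjusted p = 0.0182). Mbtps2, the site-2 protease that frees the SREBP factors, fell with miR-294 (-0.63 ± 0.066, adjusted p = 6.97e-05) and with siMbd2 (-0.26 ± 0.066, adjusted p = 0.0166). The 3′ UTR of Erlin1 holds a 7-base match to the miR-294 seed (chr19:44035117-44035123, minus strand), shown with the match in capitals because this gene fell most in the list.
Erlin1: agattaaagaaAGCACTTccacttgagct

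Among 9 other mevalonate and sterol enzymes 1 rose and 3 fell (Por, Cyb5r3 and Lbr) with miR-294, at a median of -0.11, and 1 rose and 1, Por, fell with siMbd2, at a median of 0.12. Por, the reductase that supplies electrons to Cyp51 and Sqle, read 24.0 and 20.9 RPKM in CTR, 15.5 and 15.2 with miR-294 and 17.3 and 16.5 after siMbd2 and fell in both (-0.51 ± 0.081, adjusted p = 6.22e-04, and -0.38 ± 0.081, adjusted p = 0.00824).

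Of 10 genes for sterol uptake, storage and efflux, 7 fell with miR-294 (median -0.30, beside 36.8% of all genes called lower), and 2 rose (Soat1 and Npc2) and 4 fell (Mylip, Abca1, Lipa and Abcg1) with siMbd2, at a median of -0.038. Mylip, a ubiquitin ligase of sterol uptake, fell in both treatments (-0.76 and -0.66), from 4.36 and 3.84 RPKM in CTR to 2.09 and 1.92 with miR-294 and 2.33 and 2.10 after siMbd2. Abca1, a cholesterol exporter, fell with siMbd2 (-0.59 ± 0.098, adjusted p = 0.00317).

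Of 11 other genes of fatty acid synthesis and elongation 8 fell with miR-294 (median -0.40, beside 36.8% of all genes called lower) and 3, Mid1ip1, Acss2 and Elovl7, with siMbd2 (median -0.21). Acss2, which makes acetyl-CoA from acetate, read 11.4 and 9.54 RPKM in CTR, 3.72 and 3.59 with miR-294 and 7.20 and 7.35 after siMbd2 and fell in both (-1.30 ± 0.097, adjusted p = 1.27e-05, and -0.47 ± 0.097, adjusted p = 0.00769). Acsl5, an acyl-CoA synthetase, read 14.4 and 15.4 RPKM in CTR, 4.82 and 4.63 with miR-294 and 12.3 and 13.2 after siMbd2 and fell with miR-294 (-1.47 ± 0.079, adjusted p = 3.11e-06). Me1, the malic enzyme that supplies NADPH for chain building, fell with miR-294 (-0.97 ± 0.067, adjusted p = 8.79e-06). Of 14 genes for the oxidation of fatty acids 9 fell and 5 were not called with miR-294 (median -0.51, beside 36.8% of all genes called lower), and 1, Hadha, rose and 6 fell with siMbd2 (median -0.16, beside 19.5% and 14.9%). Cpt1a, the gate for entry of fatty acids into mitochondria, read 32.9 and 29.7 RPKM in CTR, 8.30 and 7.79 with miR-294 and 20.5 and 19.6 after siMbd2, in 3 groups that did not overlap. It fell with miR-294 (-1.83 ± 0.076, adjusted p = 1.59e-06) and with siMbd2 (-0.61 ± 0.076, adjusted p = 0.00105). Beside Erlin1, seed matches lay in Mbtps2 and Elovl7, which fell with miR-294, and in Soat1 and Abca1, which were not called. Of the other genes named from these lists only Cpt1a held a match, and Acsl5, Acss2 and Me1 fell without one. Whether matches go with the falls was not tested. The 3′ UTR of Cpt1a holds a 7-base seed match (chr19:3384562-3384568, plus strand), shown as the site of the gene with the lowest log2 difference between miR-294 and CTR among those named here.
Cpt1a: gtccctaagtaAGCACTTcccccacccta

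**Figure D4:**
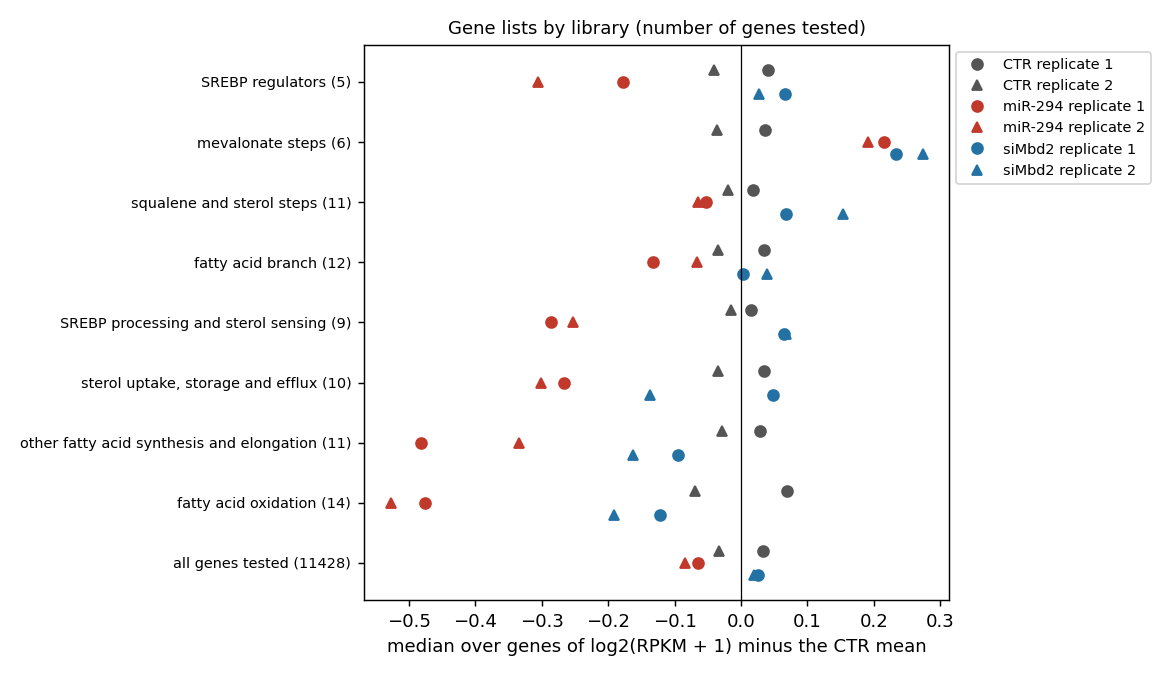
Median over the genes of each list of log2(RPKM + 1) minus the CTR mean, for each library, with the number of genes tested in brackets. Mevalonate genes lie between 0.19 and 0.27 in the 4 treated libraries, and fatty acid oxidation lies at -0.48 and -0.53 in miR-294.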

How the data were processed

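Paired-end Illumina libraries of total RNA were made from 6 samples, 2 per group, per the labels' protocols. The authors deposited 1 table of RPKM values per gene and library, per the file headers, each sample being the average of 2 lanes per the labels. The submitters' processing notes name CASAVA 1.7, STAR 2.3.0, Cufflinks and the mm10 build, without roles. The table's fold columns hold a ratio of group means over CTR as deposited by the authors, per the file headers, and recomputed ratios of the members lay within 0.0073 of them. Read depth is unknown, with annotation, strand and the handling of reads shared by genes not given in the sources used here.

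Values were taken as log2(RPKM + 1). The 11428 entries that averaged at least 1 RPKM were fitted in limma 3.58.1 (R 4.3.3) as 1 model of 3 groups with an intensity trend, with 3 residual and 5.38 prior degrees of freedom, two-sided, and Benjamini-Hochberg adjusted per contrast with a threshold of 0.05. The script was tested on simulated data. Lists are described by counts and medians only. Named are all members, Mbd2 and, of each other list, up to 3 called genes with the largest log2 difference in any contrast; Lbr, Soat1, Abcg1 and Hadha are named as well, after their values were seen. Some genes of the other lists enter the counts and medians but are not reported here by name. The members and lists were chosen with earlier results of these data known.

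Alternatives were a pseudocount of 0.1, no filter, a mean of at least 5, median-of-ratios scaling, quantile normalization, no trend, a fit of the 2 groups compared, a replicate block and leaving out each library. Sequences came from GENCODE vM21 transcripts (GRCm38) and RefSeq tables (GRCm38.p6), handled in Python 3.11.15 (numpy 2.4.6, pandas 2.3.3, plots in matplotlib 3.10.9).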

Additional observations from a re-analysis of the deposited data

How the results depend on the processing

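Of the 15 member calls between miR-294 and CTR, 9 (Acat2, Fdps, Lss, Ebp, Scd1, Scd2, Elovl1, Fads1 and Fads2) were kept under every alternative run, of the 17 between the treatments 9, and of the 13 between siMbd2 and CTR none, 4 of them (Scap, Mvk, Fdps and Lss) being kept in every fit with all 6 libraries available. Leaving out 1 library at a time gave 5 to 8 members higher and 5 to 10 lower with miR-294 (without miR-294 replicate 2, 5 and 5), 0 to 12 higher and 0 to 3 lower with siMbd2, and 2 to 5 higher and 8 to 16 lower between the treatments. In the same fits and order the sterol medians ran from -0.039 to 0.012, 0.18 to 0.25 and -0.18 to -0.14, and the fatty acid medians from -0.13 to -0.066, -0.044 to 0.054 and -0.056 to 0.0064. With the 2 groups alone 4 rose and 0 fell under siMbd2 (limma, 12 and 3 at an unadjusted p under 0.05). Between the treatments such a fit gave 5 higher and 17 lower with miR-294, where the main fit gave 4 and 13. Why these counts moved was not tested. Quantile normalization moved the median of all genes between the treatments by 0.11, from -0.081 to 0.025. Relative to all genes the sterol median was -0.077 before and -0.025 after it, and the fatty acid median 0.079 and -0.0004. With median-of-ratios scaling 9 members rose and 7 fell with miR-294, so 56.2% of the calls were upward where 46.7% were before, and with quantile normalization 10 and 7 (58.8%). Between the treatments median-of-ratios scaling gave 8 higher and 10 lower (44.4% upward, before 23.5%) and quantile normalization 9 and 11 (45.0%). Apart from the fits without 1 library, whose ranges are given above, branch medians that moved by more than the spread between replicates were, for miR-294 against CTR, sterol 0.025 under a mean of at least 5 and under median-of-ratios scaling, 0.14 under quantile normalization, and fatty acid -0.023 under median-of-ratios scaling. For siMbd2 they were sterol 0.17 and fatty acid -0.049 with quantile normalization, and between the treatments sterol -0.086 and fatty acid 0.077 with median-of-ratios scaling, then sterol 0.0003 with quantile normalization. The cause was not tested. Nr1h2, not called with miR-294 (-0.033), ran from -0.21 to 0.15 over these fits being called higher without CTR replicate 1 and lower without CTR replicate 2. Little pairing by replicate number was seen, as deviations of same-numbered libraries correlated at 0.12, 0.13 and 0.02. These values alone cannot settle whether the samples were paired. A fit with the replicate as a block called 7 members higher and 9 lower with miR-294, 13 and 3 with siMbd2, and 4 and 14 between the treatments. It added the calls of Srebf1 with miR-294 (adjusted p = 0.0173) and between the treatments (0.016), and of Idi1 (0.0101), Pmvk (0.0307) and Elovl5 (0.048) with siMbd2. Depth is unknown, so no limit from counting can be given.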

Other observations

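The desaturase pairs differed in their balance as well as in their levels. Summed over Scd1 and Scd2 the libraries had 40.2 and 38.4 RPKM in CTR, 36.4 and 36.2 with miR-294 and 35.1 and 34.7 after siMbd2. Scd1 made up 9.11% and 8.95% of that sum in CTR, 21.8% and 23.3% with miR-294 and 12.5% and 13.3% after siMbd2, so the 3 groups overlapped neither in the sum nor in this share. The ratio of Fads1 to Fads2 RPKM was 0.676 and 0.759 in CTR, 0.852 and 0.896 with miR-294 and 0.663 and 0.631 after siMbd2. Fads3, the third gene of that cluster, 2.7 kb from Fads2, was under 1 RPKM in every library (0.22 to 0.55) and was not tested. These shares were computed after the values of the genes had been seen and carry no test.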
